A study of Rattus norvegicus with 6 samples.

Results

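The miRNA cluster that runs from miR-379 to miR-410 and other miRNAs of the imprinted Dlk1-Dio3 region were examined in rat myocyte-derived cells (MDCs) and rat cardiomyocytes. The members were all mouse (mmu) or rat (rno) assays on a TaqMan rodent miRNA card whose miRNA number belongs to the cluster or to its neighbourhood, whatever the arm or letter. The rule uses only the miRNA number and no measured value, but the list was chosen with earlier results of these data known. Of 375 miRNA assays on the card, 43 were members, 37 named for mouse and 6 for rat. They covered 32 of the 39 numbers of the list, and no assay was found for miR-299, miR-300, miR-341, miR-412, miR-485, miR-541 or miR-1193.

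The samples were 3 sets of MDCs and 3 sets of myocytes, all from purified heart cells of Wistar-Kyoto rats aged 2 months. MDCs are the dedifferentiated, progenitor-like cells that arise in culture from purified adult cardiomyocytes, and the other sets came from the mature heart cells. The labels state 2 weeks of culture in medium rich in mitogens for every set, whereas the paper calls the myocytes freshly isolated, so the culture state of the myocyte sets is uncertain. No transgene was involved. The paper's prolonged cultures received the growth factors bFGF and TGF-β3 and serum. If the myocytes were freshly isolated, only the MDC sets had this exposure. The labels do not say how many rats or cultures each set came from. Except where sets are taken as separate samples, the p-values here measure only the spread between the cards described next.

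Each well gave a Ct, the PCR cycle at which fluorescence crossed a threshold, so that a lower Ct means more template and 1 cycle stands for about 1 log2 unit. A well without signal by cycle 40 was read as no signal. A level is the mean of the 4 U6 wells of the same set minus the Ct, U6 being a small nuclear RNA used as the control, and a difference is MDC minus myocyte on this log2 scale. Signal was present for 201 miRNAs in each MDC set and for 203 to 212 in the myocyte sets. The same wells lacked signal in all MDC sets, so their mean was used, as if they were repeated readings of 1 card. Myocyte 2 and Myocyte 3 were likewise taken as 1 card, and Myocyte 1 as the other. This is an inference from the wells without signal. The paper's methods state 2 biological and 2 technical repeats, and the legend of its miRNA figure gives n = 3. Neither the methods nor the labels say which sets are which. These numbers do not match a single MDC card, so the inference stays uncertain. By this inference, the comparison set 1 MDC card against 2 myocyte cards. The lone MDC card was assumed to vary as the myocyte cards did, and taken this way the sets hold no spread among MDC cultures. Counts with all 6 sets as separate samples are given beside the calls. An exact permutation test of 1 card against 2 cannot give a p below 0.333.

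MDC 1 stood apart from the other sets. All 201 of its miRNA Ct values lay within 0.1 cycles of a whole number, the largest distance being 0.0862 cycles, against 17.2% to 22.4% of the Ct values in the other 5 sets. All 25 member values in MDC 1 had this property. Relative to U6, 21 of these 25 were lower in MDC 1 than in the mean of MDC 2 and MDC 3, by a median of 1.09 log2 units. Results are therefore given with MDC 1 and, where it mattered, without it.

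**Figure D1:**
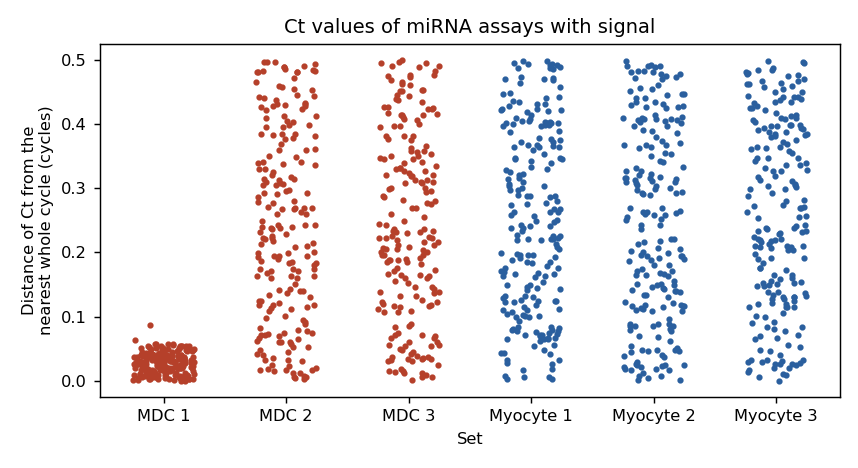
Distance of each Ct from the nearest whole cycle (cycles) in the 3 MDC sets and the 3 myocyte sets, 1 point for each miRNA with signal, spread sideways for legibility. The points of MDC 1 lie at or below 0.0862 cycles, while those of the other sets fill the range.

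The miRNAs of this locus are imprinted and are made from the maternal chromosome, as part of long transcripts that also yield the noncoding RNAs Meg3, Rian and Mirg. The cluster from miR-379 to miR-410 is among the largest miRNA clusters of placental mammals and is known for high activity in the embryo, the placenta and the brain. A miRNA directs the silencing complex to messenger RNAs mainly through its seed, bases 2 to 8 from the 5′ end, so that miRNAs with different seeds are generally expected to have different targets.

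In the RefSeq annotation of the rat genome (GRCr8) the cluster runs from the Mir379 hairpin to the Mir410 hairpin, chr6:134543445-134579838 on the plus strand, a stretch of 36.4 kb. It held 34 of the 43 assays, for 27 miRNA genes. Another 5 assays, of miR-770-3p, miR-673, miR-540 (both arms) and miR-665, belong to genes upstream of it. The 4 assays of miR-453, miR-654 (both arms) and miR-679 matched no rat gene in the table by name. A rat mature sequence was matched to 39 assays, which gave 35 distinct sequences. The older assay names often give no arm, and for 24 of the 39 the arm was assigned from general knowledge of the older naming. The sequences printed are those of the rat in RefSeq and not the assay's own target sequences, which were not analysed here.

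The following rat sequences belong to the members with the clearest differences or contrasts, with the seed in capitals. They begin with miR-379, miR-411, miR-410, miR-494 and miR-369-5p, which were called higher in MDCs.
miR-379-5p: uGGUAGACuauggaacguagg
miR-411-5p: uAGUAGACcguauagcguacg
miR-410-3p: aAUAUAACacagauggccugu
miR-494-3p: uGAAACAUacacgggaaaccucu
miR-369-5p: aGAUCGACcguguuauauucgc
The next were seen in MDCs on no myocyte card, and had the earliest Ct values of that kind.
miR-382-5p: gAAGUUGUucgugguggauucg
miR-495: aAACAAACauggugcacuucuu
miR-134-5p: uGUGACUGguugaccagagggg
miR-543-3p: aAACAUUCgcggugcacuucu
The miR-376 sequences are shown because closely similar miRNAs had signal in different sets, miR-381-3p because its mouse and rat assays disagreed, and miR-667-3p because it was called lower.
miR-376a-3p: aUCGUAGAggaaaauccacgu
miR-376b-3p: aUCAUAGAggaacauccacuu
miR-376c-3p: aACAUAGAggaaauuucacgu
miR-381-3p: uAUACAAGggcaagcucu
miR-667-3p: uGACACCUgccacccagcccaa
The 35 sequences had 35 distinct seeds, so no seed was shared by different members. Only 3 pairs had seeds that differed at 1 base, namely miR-379-5p and miR-411-5p, miR-376a-3p and miR-376b-3p, and miR-376b-3p and miR-376c-3p.

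Compared with the whole card, more of the members were seen in MDCs alone and fewer had signal on every card. Of the 43, 16 had signal in MDCs and on no myocyte card (37.2%, against 9.33% of all 375 assays), and 1 had signal on both myocyte cards and none in MDCs (2.33%, against 10.4% of all assays). Signal on every card was found for 7 (16.3%, against 41.9% of all assays), and only these could be tested. A further 3 had signal on 1 myocyte card, 2 of them also in MDCs. No signal in any set was found for 16 (37.2%, near the 32.3% of all assays). The share of members with any MDC signal, 25 of 43 (58.1%), was near the 53.6% of all assays. Of the members 11 were seen on at least 1 myocyte card, against 219 of all 375 assays.

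**Figure D2:**
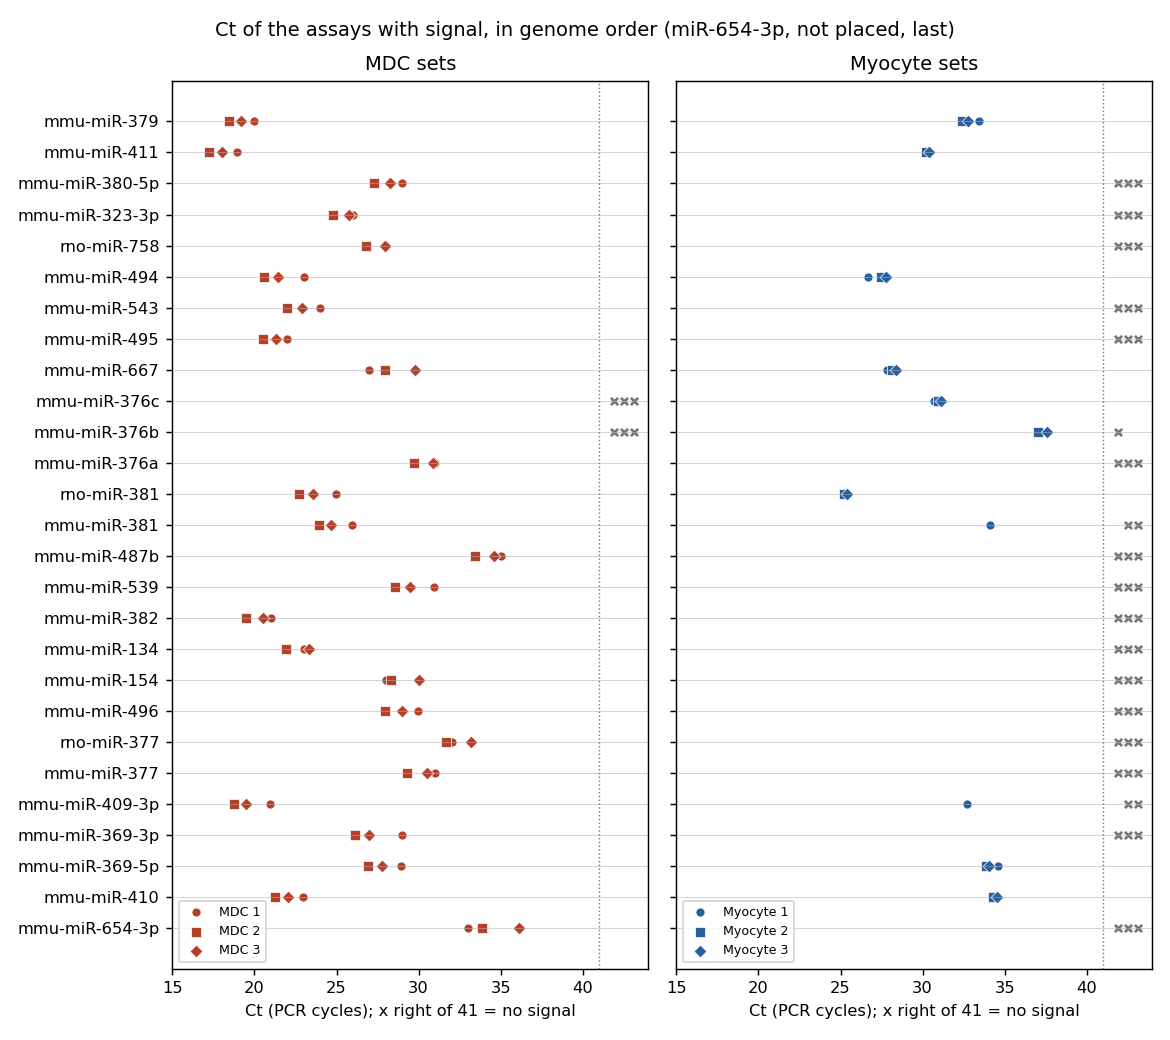
Ct (PCR cycles) of the 27 member assays with signal in any set, in genome order from the miR-379 end, in the MDC sets (left) and the myocyte sets (right), with 1 symbol for each set. Crosses right of cycle 41 mark sets without signal, and 16 assays have symbols on the MDC side only.

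With a missing Ct set at 40, the median difference was 10.61 log2 units over the 26 members with signal in MDCs or on both myocyte cards, and −0.73 over the 240 such assays of the whole card. These medians are descriptions only, since 16 of the 26 members entered through their MDC signal with no measured myocyte level. Another 2, seen on 1 myocyte card, also entered through their MDC signal. Signal on 1 myocyte card alone was not enough to enter, which left out miR-376b, and with it the median over all 27 members with signal was 10.31. Without MDC 1 these medians were 10.94 and −0.28. The median of the members depends on where a missing Ct is placed, and with detection limits of Ct 35 and Ct 32 it was 5.70 and 3.74.

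Among the 7 tested members, 5 were higher in MDCs by limma, where 28.0% of the 157 miRNAs tested were called higher, and 1 was lower, where 52.2% were called lower. The common SD of the fit was 0.28 log2 units. The SE was the same 0.35 for every difference, so it is not the precision of a single miRNA. Among the tested members the SD of the 2 myocyte cards ran from 0.05 for miR-667 to 0.81 for miR-379, and was 0.71 for miR-369-5p. Of the 25 members with MDC signal, 24 varied more than the common SD between the 3 MDC readings, whose SD ranged from 0.24 to 1.36 log2 units. The very small adjusted p-values given below rest on the spread between the 2 myocyte cards, borrowed across all miRNAs, and hold no variation among MDC cultures. With all 6 sets as separate samples, limma called the same 5 members higher, with adjusted p-values from 1.01e-11 to 2.24e-06, and none lower. If the sets are readings of 3 cards, as inferred above, these p-values count repeated readings as replicates. They then hold no variation among MDC cultures either.

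miR-379, the first miRNA of the cluster, gave Ct values of 19.9, 18.4 and 19.2 in MDC 1, 2 and 3, against 33.4, 32.4 and 32.8 in Myocyte 1, 2 and 3. The groups did not overlap. Its level was −5.25 on the MDC card, against −18.17 ± 0.81 on the myocyte cards (SD, n = 2), a difference of 12.92 ± 0.35 log2 units (SE, limma adjusted p = 1.02e-77). Its neighbour miR-411, whose seed differs from that of miR-379 at 1 base, gave Ct values of 19.0, 17.2 and 18.0 in the MDC sets, against 30.2, 30.2 and 30.4 in the myocyte sets. The difference was 11.27 ± 0.35 (SE, limma adjusted p = 4.43e-70), again without overlap.

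miR-410, at the other end of the cluster and reported in rat cardiomyocytes as a regulator of proliferation, gave Ct values of 23.0, 21.2 and 22.1 in the MDC sets, against 34.2, 34.3 and 34.5 in the myocyte sets. Every MDC reading was far earlier than every myocyte reading. The difference was 11.31 ± 0.35 (SE, limma adjusted p = 2.94e-70). The myocyte Ct values of miR-379 and miR-410 were late, where a card could also miss a signal, as shown for other members below.

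The differences of miR-369-5p and miR-494 were smaller. miR-369-5p gave Ct values of 29.0, 26.9 and 27.8 in the MDC sets, against 34.6, 33.9 and 34.0 in the myocyte sets, a difference of 5.49 ± 0.35 (SE, limma adjusted p = 2.06e-33). miR-494, a miRNA studied in cardiac injury, was well detected in both groups, at Ct values of 23.0, 20.6 and 21.4 in the MDC sets, against 26.7, 27.5 and 27.7 in the myocyte sets. It was higher by 4.57 ± 0.35 (SE, limma adjusted p = 1.8e-26), by 5.22 without MDC 1 and by 3.28 with MDC 1 alone. Neither miRNA overlapped between the groups. How many of the 157 tested miRNAs lacked overlap is not given here, but 44 were called higher and 82 lower. If the MDC sets are readings of 1 card, as inferred above, the lack of overlap of these 5 members concerns repeated readings.

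The remaining tested members, rno-miR-381 and miR-667, had differences near the spread of the MDC readings, and both values moved when MDC 1 was left out. The rat assay of miR-381 gave levels of −10.97, −9.35 and −9.15 in MDC 1, 2 and 3, against −10.72, −10.30 and −10.27 in the myocyte sets. The groups overlapped through MDC 1. The difference of 0.67 ± 0.35 (SE) did not pass (limma adjusted p = 0.0668), whereas without MDC 1 it was 1.25 (limma adjusted p = 0.000635) and was called higher, which made 6 members called higher, beside 34.4% of all tested miRNAs in that fit.

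miR-667 gave Ct values of 27.0, 27.9 and 29.8 in MDC 1, 2 and 3, against 27.8, 28.1 and 28.4 in the myocyte sets. Relative to U6, these were levels of −12.99, −14.55 and −15.34 in MDC 1, 2 and 3, against −13.15, −13.20 and −13.25 in the myocyte sets. Its MDC readings lay on both sides of the narrow myocyte range. The call was lower, by −1.11 ± 0.35 (SE, limma adjusted p = 0.00255). It was −1.76 without MDC 1 and −0.58 without MDC 3 (limma adjusted p = 0.118), and with the 3 MDC readings as separate samples it did not pass (limma adjusted p = 0.179). Scaled to the mean of the detected miRNAs, which raised every difference by 0.90, it was −0.20 and was not called. With the mean of the other controls as normalizer, which raised every difference by 6.24, its sign was positive.

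In MDCs alone, 10 members were seen at a mean Ct before cycle 29, and their myocyte sets gave no signal. With the missing myocyte Ct set at 40, their differences were 10.11 to 18.75 log2 units. They were not tested. Since 23 miRNAs of the whole card had signal on only 1 of the 2 myocyte cards, at a median Ct of 33.5 and a range of 25.2 to 38.3, no signal did not always mean a template below the limit of 40 cycles. Of these 23, 5 had a Ct under 32. With the missing Ct at 32, which was a stricter placement, the differences of these 10 were 2.11 to 10.75.

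miR-382 had the earliest signal of them, with Ct values of 21.0, 19.5 and 20.5 in MDC 1, 2 and 3. Its difference was 18.75 with the missing Ct at 40 and 10.75 with it at 32. miR-495, reported together with miR-410 in rat cardiomyocyte proliferation, gave 22.0, 20.5 and 21.3 cycles in the MDC sets. miR-134, which in rat neurons restrains dendritic spine growth, gave 23.0, 21.9 and 23.3 cycles in the MDC sets.

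The mouse assay of miR-543 gave 24.0, 22.0 and 22.9 cycles in the MDC sets, and that of miR-323-3p gave 26.0, 24.8 and 25.8. For miR-369-3p, which in human cells binds an AU-rich element of the TNF messenger RNA, the Ct values were 29.0, 26.1 and 27.0. All 6 values of miR-543 and miR-323-3p were before cycle 27, and no myocyte set gave signal for these 3 miRNAs.

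The rat assay of miR-758 gave 28.0, 26.8 and 28.0 cycles in the MDC sets. miR-380-5p gave 29.0, 27.3 and 28.3 cycles, miR-154 gave 28.0, 28.3 and 30.0, and miR-496 gave 30.0, 28.0 and 29.0. None of these 4 gave signal in a myocyte set. The other 6 members seen in MDCs alone, miR-539, both assays of miR-377, miR-376a, miR-487b and miR-654-3p, had mean MDC Ct values of 29.7 to 34.3. With the missing myocyte Ct at 32, their differences were small or negative. They were 1.42 for miR-539, 0.84 and −1.21 for the mouse and rat assays of miR-377, and 0.55 for miR-376a. For miR-487b and miR-654-3p they were −3.24 and −3.25. Of all 16, 13 had a mean MDC Ct under 32, and over the whole card 28 of the 35 assays seen in MDCs alone did.

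miR-409-3p and the mouse assay of miR-381 had signal in MDCs and in Myocyte 1 only. miR-409-3p gave Ct values of 20.9, 18.7 and 19.5 in the MDC sets, against 32.7 in Myocyte 1 and no signal in Myocyte 2 and 3. With the missing Ct at 40 its difference was 15.70, and with a myocyte Ct of 32 on both cards it was 11.36. It was among the members with the earliest MDC signal.

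The members of the miR-376 family had signal in different sets. These miRNAs are paralogs that lie next to each other and are known in the brain for RNA editing of their precursors. miR-376c was the only member seen on both myocyte cards and not in MDCs, with Ct values of 30.7, 31.0 and 31.1 in the myocyte sets. With the missing MDC Ct at 40 its difference was −10.05. miR-376b was without signal in the MDC sets and in Myocyte 1, and had late Ct values of 37.0 and 37.6 in Myocyte 2 and 3, taken as 1 card. miR-376a, like 15 other members, was seen in MDCs alone, with 31.0, 29.7 and 30.9 cycles in the MDC sets and no signal in the myocyte sets.

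The sequences of these paralogs are close. Compared base by base without gaps, miR-376a-3p and miR-376b-3p were identical at 18 of 21 positions and miR-376b-3p and miR-376c-3p at 16 of 21. All 3 hold the motif UAGAGGAA, searched on the given strand, which occurred in 3 of the 691 distinct rat mature sequences of RefSeq (0.434%). Whether the mouse assays tell the rat paralogs apart was not tested, and the late Ct values of all 3 limit what the contrast shows.

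Some members share their seed with another rat mature sequence. The seed of miR-376c-3p is that of miR-741-5p, the seed of miR-329-3p that of miR-362-3p, the seed of miR-410-3p that of miR-344b-1-3p, and the seed of miR-381-3p that of miR-539-3p, the other arm of a hairpin in the same cluster. The card's assay of miR-741, whose arm is not given, had no signal in the MDC sets, against Ct values of 30.9, 31.0 and 31.2 in the myocyte sets. It was thus seen in the same sets as miR-376c, but whether it reads the arm with the shared seed is not known. The card's miR-362-3p had signal on every card with a difference of −0.12 that did not pass (limma adjusted p = 0.76), while miR-329 had no signal in any set.

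Assays of the same miRNA for mouse and rat did not always give the same result. For miR-381 the mouse assay was later than the rat assay by 1.02, 1.16 and 1.09 cycles in MDC 1, 2 and 3, against 8.69 cycles in Myocyte 1. The mouse assay gave 26.0, 23.9 and 24.7 cycles in the MDC sets, against 34.1 in Myocyte 1 and no signal in Myocyte 2 and 3. The rat assay gave 24.9, 22.7 and 23.6 cycles in the MDC sets, against 25.4, 25.2 and 25.4 in the myocyte sets. The difference of miR-381 was therefore 11.28 by the mouse assay with the missing Ct at 40, and 0.67 by the rat assay.

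For miR-377 both assays were seen in the MDC sets alone, the mouse assay earlier than the rat assay by 1.04, 2.40 and 2.69 cycles. For miR-543 the mouse assay was seen in MDCs and the rat assay in no set. For miR-409-5p neither assay gave signal. Of the 4 miRNAs with an assay for each species, only miR-377 and miR-409-5p thus gave the same pattern of sets with signal by both.

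**Figure D3:**
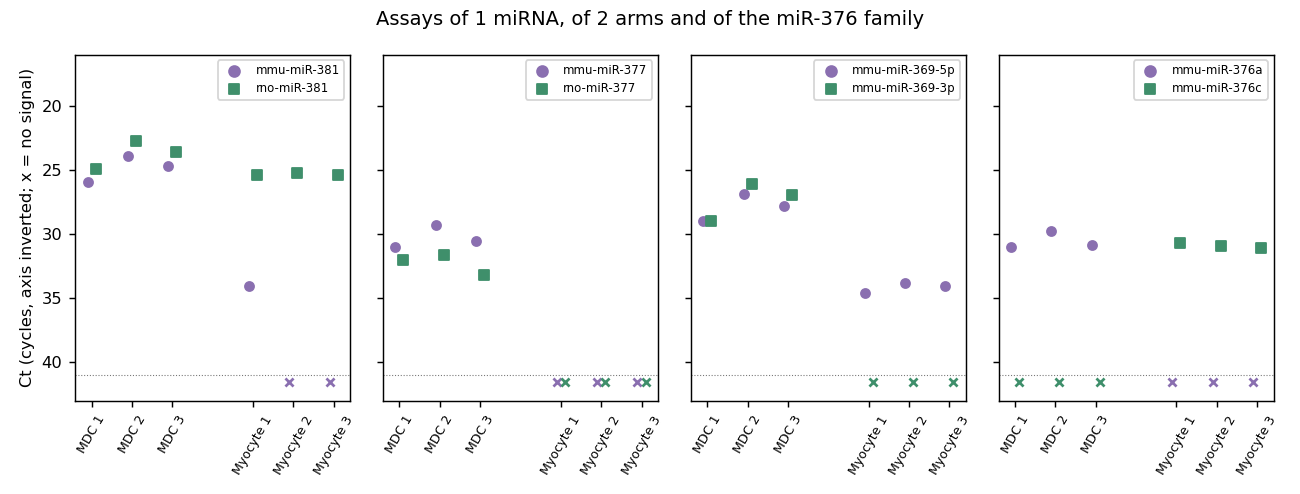
Ct (cycles, inverted axis so that higher points mean more template) of pairs of assays in the MDC sets (left in each panel) and the myocyte sets (right), with crosses for sets without signal. The mouse and rat assays of miR-381 lie about 1 cycle apart in the MDC sets and 8.69 cycles apart in Myocyte 1, and miR-376a and miR-376c were seen in opposite groups.

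The arms of a hairpin are processed from the same precursor and are often kept unequally. Both arms of miR-369 were seen in MDCs, and the 5p arm was later than the 3p arm by 0.80 and 0.81 cycles in MDC 2 and 3 while in MDC 1 they lay within 0.01 cycles of each other. In the myocyte sets the 5p arm alone was seen. For miR-380 the 5p arm was seen in MDCs and the 3p arm in no set, for miR-409 the 3p arm was seen and the 5p arm in no set, and for miR-654 the 3p arm was seen late, at 33.0, 33.9 and 36.1 cycles, and the 5p arm in no set. Neither arm of miR-540 gave signal. Ct values of different assays also depend on the efficiency of each assay, so these orders describe assays and not amounts of RNA.

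Along the cluster, 24 of the 34 assays had signal in MDCs, for 21 of the 27 genes. None of the 5 upstream assays had signal in any set, and 1 of the 4 unplaced assays, miR-654-3p, had signal in MDCs. In the first 12 kb, 9 of 13 assays had MDC signal, at a median Ct of 22.9. In the stretch from 12 to 24 kb, which holds miR-376 and miR-381, 5 of 8 had MDC signal, at a median Ct of 29.7. In the last stretch 10 of 13 did, at a median Ct of 27.6. Across the 21 genes seen in MDCs, taking the earlier assay of each, position and MDC level had a Pearson r of −0.19 and a Spearman rho of −0.25. These points share the same sets and differ in assay efficiency, so the values are a description only. Early and late signals were found at each end of the cluster, as for miR-379 and miR-380-5p, and for miR-410 and miR-369-5p.

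**Figure D4:**
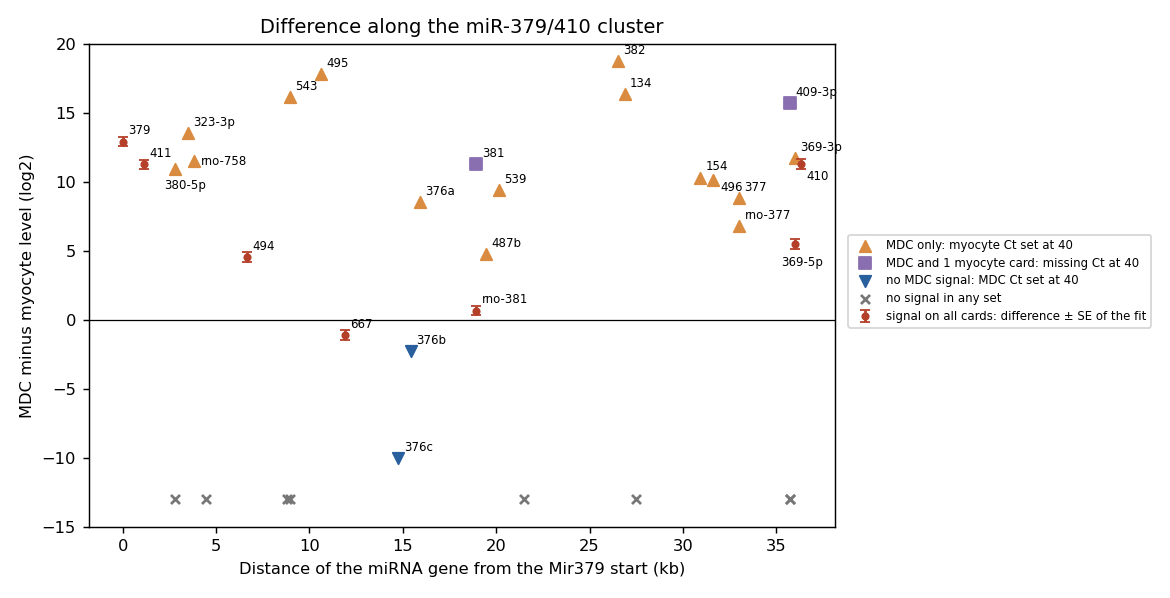
MDC minus myocyte level (log2) of each cluster assay against the distance of its gene from the start of Mir379 (kb), with the SE of the fit where all cards gave signal and with a missing Ct set at 40 elsewhere. Points below 0 belong to miR-667, miR-376b and miR-376c, and crosses at the bottom mark assays without signal in any set.

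The 16 members without signal in any set were miR-329, miR-380-3p, the mouse and rat assays of miR-409-5p, miR-453, miR-540-3p, miR-540-5p, the rat assay of miR-543, miR-544, miR-654-5p, miR-665, miR-666-5p, miR-668, miR-673, miR-679 and miR-770-3p.

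A list of other imprinted miRNAs of the same locus held 10 assays on the card, of miR-127, miR-136, miR-337, miR-370, miR-431, miR-433, miR-434 and miR-493. Of these, 3 were tested, 1 called higher and 2 lower, 3 were seen in MDCs alone, 2 had signal in MDCs and on 1 myocyte card, and 2 had no signal. Among the 8 with signal, 6 were higher in MDCs with a missing Ct at 40, against 104 of 240 assays of the whole card. Their median difference was 11.26. It depends on where a missing Ct is placed, since 3 of the 8 had no myocyte signal and 2 had it on 1 card. miR-127, which lies antisense to the imprinted gene Rtl1, was higher by 9.77, and miR-434-3p was lower by −3.72.

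**Figure D5:**
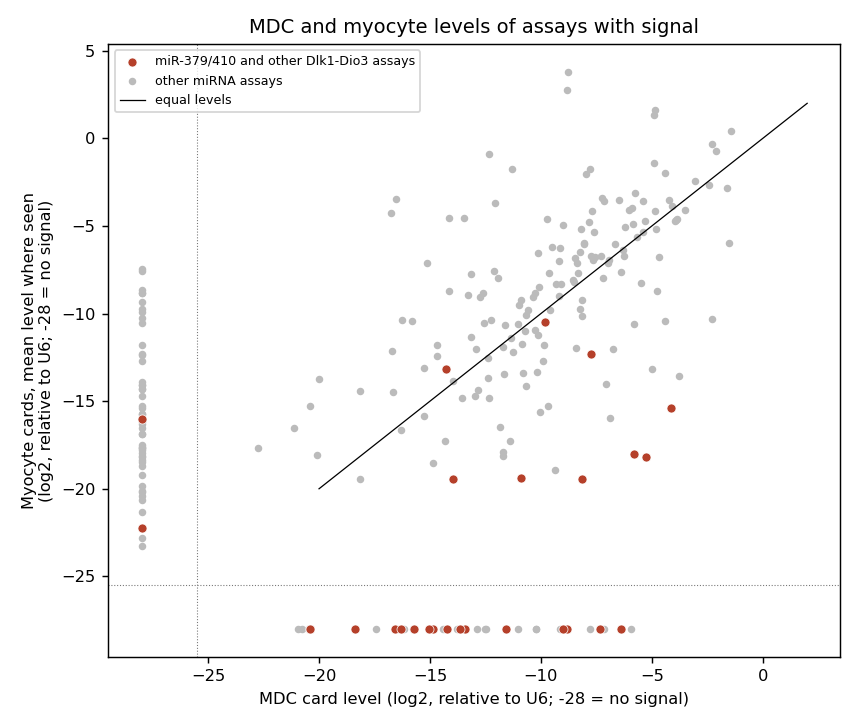
Level relative to U6 (log2) of each miRNA assay with signal in any set, with the MDC card on the horizontal axis and the mean of the myocyte cards with signal on the vertical axis, members in colour and other assays in grey and with no signal drawn at the left and lower edges. Below the line of equal levels the MDC level is the higher one, and the lower edge holds the 16 members seen in MDCs alone.

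Markers of other cell types moved between the groups as well. All 5 fibroblast assays on the card were seen in MDCs, 4 called higher and 1 seen in MDCs alone, and their summed level was −1.81 to −0.86 in the MDC sets, against −5.94 to −5.82 in the myocyte sets. Of the 7 cardiomyocyte assays, 5 were called lower and 2 had no MDC signal, with a summed level of −8.09 to −7.30 in the MDC sets, against 4.32 to 4.57 in the myocyte sets. The 2 endothelial and the 2 smooth muscle assays were all called lower. Of the 5 leukocyte assays, 1 was called higher, 3 lower and 1 was seen in MDCs alone, and the erythroid miR-451 had no signal in MDCs. Of the 3 neural assays, 1 was called higher, 1 lower and 1 had no signal. The part of these changes in the levels of the cluster was not tested, and in bulk RNA a change in the number of cells of a type cannot be told apart from a change in the RNA of each cell.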

How the data were processed

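RNA of the 6 sets had been reverse-transcribed, pre-amplified and read on TaqMan rodent miRNA cards with 384 wells. The deposited values are PCR cycles (Ct), a unit in which a lower value means more template. The authors also deposited Ct minus the mean Ct of U6, which equals the raw values after the same subtraction and was not used further. How many molecules lay behind a Ct is unknown.

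Undetermined wells and wells at 40 were read as no signal. Sets with identical wells of no signal were taken as 1 card, an inference, and averaged. Levels relative to U6 were tested in R 4.3.3 by limma 3.58.1 over 157 miRNAs with signal in every sample, with Benjamini-Hochberg adjustment over all of them and a threshold of 0.05. The script was tested on simulated data. The members, lists and alternatives were chosen with earlier results of these data known. The text gives set values for all tested members, those with signal on some myocyte cards, the 10 earliest seen in MDCs alone, and those seen in myocytes alone. Marker lists came from general knowledge. Sequences and gene order came from RefSeq (GRCr8), as the files name no build. Figures were drawn with matplotlib 3.10.9.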

Additional observations from a re-analysis of the deposited data

How the results depend on the processing

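The calls of miR-379, miR-410, miR-411, miR-369-5p and miR-494 kept their direction and side of the threshold in every alternative that tested them. The count of 5 members higher was 3 with a limit of Ct 32, where 4 were tested. It was 22 with missing Ct values set at 40, where members without a measured myocyte level enter. The share of all assays called higher was given only for the main fit and the fit without MDC 1. The other counts therefore describe the members alone and not a contrast with the card. The count of 1 member lower was 0 with no normalizer, the mean of the other controls or the mean of detected miRNAs, all 6 sets as separate samples with or without the replicate block, the MDC readings as 3 samples, MDC 1 alone, and the methods' t-test with or without adjustment, and was 0 to 1 over the sets left out singly. miR-667 reversed to 5.13 with the mean of the other controls and to 0.19 with MDC 1 alone. rno-miR-381 reversed to −0.47 with MDC 1 alone, and its failure to pass was not stable. It was called higher in 9 alternatives. Among these were Ct 35, Ct 32, limma's trend and robust options, MDC 2 alone, MDC 3 alone and MDC 1 left out. The rest were scaling to detected miRNAs, scaling to other controls and no scaling. Another 10 left its result as it was, among them the fit without Myocyte 1, which gave no test. Without Myocyte 1 the count seen on the remaining myocyte card and not in MDCs was 2 instead of 1 (1 to 2 over the sets left out), and no test could be run, since no residual degrees of freedom were left. The median difference of 10.61 was 16.84 with the mean of the other controls, 11.51 with the mean of detected miRNAs, 11.52 with no normalizer, 5.70 with Ct 35 and 3.74 with Ct 32. These normalizers shift every difference by the same amount, and the cause of the other changes was not tested.

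No source says that equal replicate numbers pair the sets, and they were not taken as pairs. Deviations of same-numbered sets correlated at 0.12, −0.08 and 0.24, and with the replicate block 5 members were higher and 0 lower. The number of cards, 1 against 2, limits the precision.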
